A study of Rattus norvegicus with 16 samples.

Results

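The elastic fibre and its crosslinking were followed through 10 genes in the rat ventral prostate. They encode elastin (Eln), the fibrillins (Fbn1, Fbn2), the fibulins that bring elastin to the fibre (Fbln5, Efemp2), the fibre-bound glycoproteins Emilin1 and Mfap4, and the lysyl oxidases (Lox, Loxl1, Loxl2). The members were taken by symbol. Of the 10 genes, 9 are listed at PND21 and 10 at PND540, where the tables of both ages share 19709 gene names. Of the 10, 9 passed the filter on low counts in every comparison; they are the genes described below. Mfap4 had no entry under that symbol at PND21. At PND540 it had 1 count in CTR replicate 4 and 0 in the other 8 libraries, so the filter removed it there. It had a value only in a PND540 fit with no filter, where it was not called.

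The glands of 16 rats were profiled by mRNA sequencing. Control offspring (CTR) came from dams on a normal diet with 17% protein, and the GLLP offspring from dams kept on a diet with 6% protein in gestation and lactation. Glands were taken at postnatal day (PND) 21 from 4 CTR and 3 GLLP offspring and at PND540 from 5 CTR and 4 GLLP offspring. The labels give no strain and do not say which offspring shared a dam, so p-values measure only the spread between these samples.

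An elastic fibre has a core of crosslinked elastin laid on a scaffold of fibrillin microfibrils. Fibulins bind both and place the elastin precursor on the scaffold, after which lysyl oxidases, copper enzymes, oxidise lysines so that the chains crosslink. Elastin turns over slowly and is made mostly while an organ grows. In the prostate such fibres lie in the stroma of smooth muscle and fibroblasts around the ducts and in vessel walls.

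Levels are CPM, counts of a library scaled to a common total, on 1 scale for all 16 libraries with trimmed mean of M values (TMM) library sizes over the shared genes. Of 5 measured genes of the ventral prostate's secretion, the sum was 18727 to 109816 CPM, most of it from Scgb1d2, Scgb2a1 and Scgb2a2. Of the others, Msmb was at 0 in 1 CTR library of PND21, and Pbsn, probasin, went down to 0.0391 CPM in a CTR library of PND540. Totals ran from 28748604 to 39161666 counts per library. CTR replicate 5 of PND540 stood apart: its median correlation with the other libraries of its age was 0.851, against at least 0.956 for each of the others. Values without it are given beside the results it moved most. The age tables list different sets of genes, 28688 at PND21 and 24218 at PND540. At least 1 gene went against its partner between them. Col1a2, a chain of type I collagen, stood at 0.0821 ± 0.0439 CPM (SD, n = 4) in CTR at PND21 and 4.34 ± 3.61 (SD, n = 5) at PND540, while its partner chain Col1a1 went the other way. The part of counting or annotation in the differences between ages was not tested, and age and table cannot be told apart. In bulk tissue, fewer cells of a type and less RNA per cell cannot be told apart either.

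Promoters, 250 bases before the start of the gene, were matched by symbol for 5 of the 10 members in RefSeq's GRCr8 assembly. Those of 3 members that were lower at PND540 are shown for their base composition. They lie at chr3:133203391-133203640 (minus strand, Fbn1), chr6:126742707-126742956 (minus strand, Fbln5) and chr1:212211472-212211721 (plus strand, Efemp2). Capitals mark the GC box, GGGCGG on either strand.

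Fbn1: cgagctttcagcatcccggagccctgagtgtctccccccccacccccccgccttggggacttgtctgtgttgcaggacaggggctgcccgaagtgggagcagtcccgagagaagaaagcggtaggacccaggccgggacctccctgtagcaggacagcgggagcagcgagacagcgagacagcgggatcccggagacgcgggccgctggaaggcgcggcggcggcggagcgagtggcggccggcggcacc

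Fbln5: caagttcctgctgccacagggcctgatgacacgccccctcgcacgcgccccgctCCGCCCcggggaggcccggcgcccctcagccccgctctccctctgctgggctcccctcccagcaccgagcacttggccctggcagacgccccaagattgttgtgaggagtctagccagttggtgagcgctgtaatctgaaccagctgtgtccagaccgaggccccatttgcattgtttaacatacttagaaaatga

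Efemp2: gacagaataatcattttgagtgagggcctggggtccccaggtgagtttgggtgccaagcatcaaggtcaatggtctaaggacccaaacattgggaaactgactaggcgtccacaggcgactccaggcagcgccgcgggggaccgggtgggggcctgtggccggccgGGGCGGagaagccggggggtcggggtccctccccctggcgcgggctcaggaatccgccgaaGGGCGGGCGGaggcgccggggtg

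The G and C share was 71.2% in the Fbn1 window, 63.2% in that of Fbln5 and 68% in that of Efemp2, against a median of 51.2% over 33469 promoters of the same length. Efemp2 held 3 GC boxes, of which 2 overlap, and Fbln5 held 1 on the minus strand, while 30.5% of all promoters hold at least 1. Fbn1 had no match to any of the 6 motifs searched on both strands. The other motifs were the TATA box TATAAA (12.9% of all promoters), the AP-1 site TGANTCA (6.34%), the TEAD site GGAATG (12.1%), the CArG box (1.5%) and the androgen receptor half-site AGAACA (17.5%), and none of the 3 windows shown holds one. The Fbn2 and Loxl1 windows, which are not shown, each hold 1 TEAD match and none of the other motifs. Such a match is only a description of letters.

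At PND21 the question was whether maternal protein restriction changed these genes in the young gland. All 9 members had fitted levels above CTR in GLLP, with log2 fold changes of 0.07 to 0.54 with a median of 0.40, against a median of -0.00 over all 14915 genes tested. Only Emilin1 passed the test (edgeR quasi-likelihood test, Benjamini-Hochberg adjusted p under 0.05), 1 of 9, where 1.01% of all genes were called higher. Every GLLP library was above every CTR library for 4 of the 9 (Fbn2, Fbln5, Efemp2 and Emilin1), where 9.49% of all genes showed that.

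Emilin1 is a glycoprotein at the face between elastin and microfibrils that also binds integrins. It stood at 48.3, 50.0, 47.6 and 48.6 CPM in the 4 CTR libraries and at 62.6, 75.5 and 73.8 CPM in the 3 GLLP libraries. The CTR libraries lay within a narrow band, with a coefficient of variation of 2.09%, and the lowest GLLP library was well clear of it. The fitted rise was 1.46-fold, a log2 fold change of 0.54 (SE 0.09, edgeR adjusted p = 0.0292). The call was kept in 8 of 15 alternatives and lost with any of 5 single libraries left out. Its edgeR adjusted p was 0.102, 0.102, 0.0811 and 0.0948 without CTR replicates 1, 2, 3 and 4, 0.16 without GLLP replicate 3, and 1 in a joint fit of all 16 libraries. The fold change kept its direction in each of these, between 0.49 and 0.62 with a library left out. With the replicate number as a block, the edgeR adjusted p was 0.34 and the log2 fold change 0.53. The block takes degrees of freedom from a fit of 7 libraries.

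Elastin itself was less even. Eln measured 345, 335, 416 and 294 CPM in CTR and 367, 431 and 574 CPM in GLLP. CTR replicate 3 was above the lowest GLLP library, so the groups overlapped. The log2 fold change was 0.40 (SE 0.17, edgeR adjusted p = 0.238).

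Of the fibrillins, Fbn2 is the form made mostly in the embryo and the growing organ, and Fbn1 the one that makes up most adult microfibrils. Fbn2 measured 23.1, 26.1, 27.9 and 26.8 CPM in CTR and 32.9, 44.0 and 34.4 CPM in GLLP, with no overlap. Its log2 fold change was 0.52 (SE 0.13, edgeR adjusted p = 0.0893), and 4 of 15 alternatives called it. Fbn1 ran from 241 to 425 CPM in CTR and from 322 to 386 CPM in GLLP, so that the GLLP libraries lay inside the CTR range (log2 fold change 0.19, SE 0.18, edgeR adjusted p = 0.594).

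Neither fibulin passed the main edgeR test. Of 15 alternatives, 3 called Efemp2 and 1 called Fbln5. Fbln5, which tethers elastin to cells and to Loxl1, measured 22.6, 20.2, 21.2 and 16.1 CPM in CTR and 22.9, 25.8 and 30.1 CPM in GLLP. The gap between the groups was small, as the highest CTR and lowest GLLP libraries differed by less than 1 CPM (log2 fold change 0.40, SE 0.15, edgeR adjusted p = 0.195). Efemp2, the fibulin that binds Lox, measured 28.2, 29.6, 29.9 and 29.3 CPM in CTR and 31.6, 39.9 and 43.5 CPM in GLLP. Here too the CTR libraries were close together and all lay below GLLP (log2 fold change 0.39, SE 0.12, edgeR adjusted p = 0.138).

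The lysyl oxidases overlapped between the diets. Lox, the main enzyme, ran from 59.6 to 85.7 CPM in CTR and from 73.3 to 87.3 CPM in GLLP (log2 fold change 0.19, SE 0.14, edgeR adjusted p = 0.45). Loxl1, the enzyme tied to elastin renewal, ran from 39.7 to 63.5 CPM in CTR, and in GLLP from 60.1 to 95.8 CPM, its highest value in replicate 4. Loxl2, which acts mainly on basement membrane collagen, ran from 13.96 to 19.4 CPM in CTR and from 14.98 to 18.6 CPM in GLLP. The 95% interval of the log2 difference was -0.05 to 0.88 for Loxl1 and -0.28 to 0.41 for Loxl2.

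**Figure D1:**
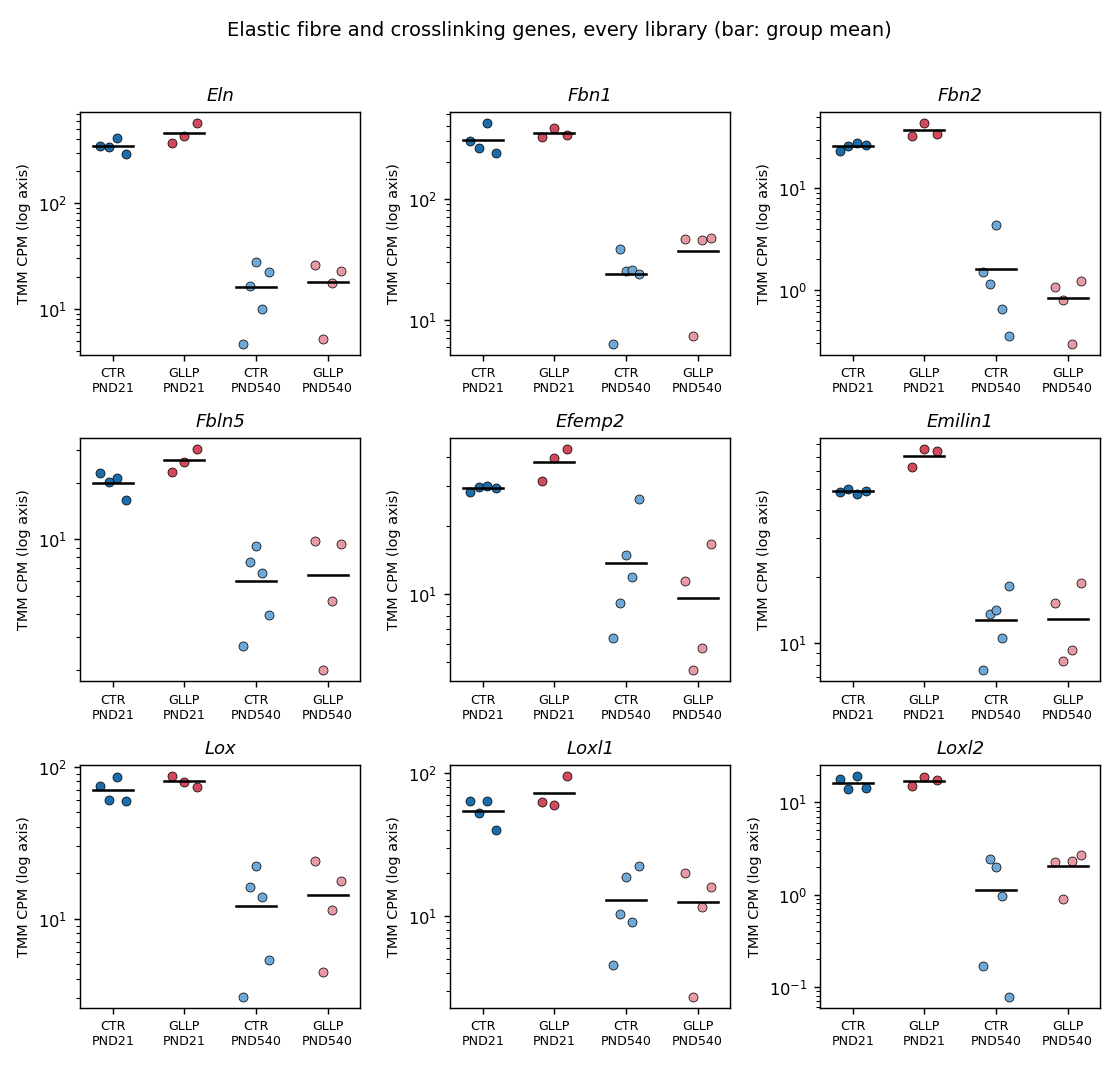
CPM (log axis) of the 9 tested members in each of the 16 libraries, 1 panel a gene, with points for libraries by diet and age and a bar for the group mean. At both diets each gene's PND540 libraries all lie below its PND21 libraries, and the PND540 points are spread more widely, as with Eln, from 4.69 to 27.6 CPM in CTR.

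Libraries that were low for 1 member were often low for others. CTR replicate 4 had the lowest level of the 7 libraries for 5 of the 9 members, and CTR replicates 2 and 4 were each among the 2 lowest for 7. GLLP replicate 4 was the highest for 4 members. Marker lists differed by diet in part. The summed level of 8 fibroblast genes was 4020 to 5927 CPM in CTR and 5746 to 7225 CPM in GLLP, and that of 8 smooth muscle genes was 3485 to 4080 CPM and 3808 to 4407 CPM, with overlap in both lists. Most of the fibroblast sum came from the collagens Col1a1 and Col3a1, with means of 1979 and 2123 CPM in CTR and 3052 and 3006 CPM in GLLP. Endothelial sums did not overlap, at 149.8 to 168 CPM in CTR and 178 to 198 CPM in GLLP, nor did immune sums, at 45.5 to 63.0 and 65.5 to 72.8 CPM. Sums of the prostate's secretion genes were lower in GLLP without overlap, at 26154 to 35940 CPM against 42338 to 52660 CPM in CTR. edgeR called no gene of these 5 lists by diet at PND21. Skeletal muscle genes, markers of striated fibres, summed to 13.1 to 19.9 CPM in CTR and 394 to 690 CPM in GLLP, and 9 of 9 tested were called higher. Their part in the members' differences was not tested.

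The other genes of the pathway at PND21 gave 2 calls. Of 20 further elastic fibre and microfibril genes, 19 were tested, 17 were higher in GLLP, the median log2 fold change was 0.42, and 1 was called. That gene was Mfap2, a small glycoprotein on microfibrils, which rose from 24.9 ± 1.64 (SD, n = 4) in CTR to 48.8 ± 13.4 (SD, n = 3) CPM, a log2 fold change of 0.98 (SE 0.18, edgeR adjusted p = 0.0381). Of 15 genes for crosslinking enzymes and their supply, 14 were tested and 1 was called: Bmp1, the proteinase that cuts the Lox precursor into active enzyme, rose from 60.0 ± 1.63 to 86.7 ± 11.7 CPM (SD, n = 4 and 3), a log2 fold change of 0.53 (SE 0.10, edgeR adjusted p = 0.0469). Both calls were lost with 6 of the 7 libraries left out in turn, with edgeR adjusted p of up to 0.19 for Mfap2 and 0.21 for Bmp1. The exception for both was GLLP replicate 2. With the replicate number as a block the edgeR adjusted p was 0.318 for Mfap2 and 0.353 for Bmp1, with log2 fold changes of 0.91 and 0.52. Of 16 elastases and inhibitors, 12 were tested and none was called by edgeR at an adjusted p of 0.05. Mmp14, a membrane metalloproteinase, had the smallest p among them, with a log2 fold change of 0.57 (SE 0.12, edgeR adjusted p = 0.0679). It was called in 5 of 15 alternatives: by edgeR with no filter (adjusted p = 0.0473), with library size alone (0.026) and without GLLP replicate 2 (0.00753), by DESeq2 (0.00347) and by limma voom (0.00244).

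At PND540 the same contrast asked whether a difference by diet was present in the old gland. No member passed the edgeR test, as no gene of 14767 tested did (0% called). DESeq2 called 2 genes, neither a member. An unadjusted edgeR p under 0.05 was found for 123 genes, 0.833% of those tested. In simulated counts of this comparison, 2.99% of 2-fold and 43.9% of 4-fold changes put in were recovered. The absence of a call therefore does not show that levels were alike. Of the 9 members, 5 were higher and 4 lower in GLLP, with a median log2 fold change of 0.11. Single libraries turned that count and median: 2 were higher, with a median of -0.11, without GLLP replicate 1, 3 (-0.10) without CTR replicate 1 and 4 (-0.099) without GLLP replicate 4, against 7 (0.43) without GLLP replicate 2, 7 (0.31) without CTR replicate 3 and 7 (0.18) without CTR replicate 5. Groups overlapped for all 9, where 0.393% of all genes did not overlap in either direction.

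Eln measured 4.69, 16.4, 27.6, 9.95 and 22.3 CPM in CTR and 26.0, 5.22, 17.4 and 22.8 CPM in GLLP. The lowest library of each diet lay near 5 CPM and the highest near 27, so the spread within each diet covered the difference (log2 fold change 0.13, SE 0.55, 95% interval -1.09 to 1.36). Emilin1, the gene called at PND21, measured 7.54, 13.5, 14.2, 10.6 and 18.1 CPM in CTR and 15.2, 8.34, 9.35 and 18.7 CPM in GLLP. Its group means were close, 12.8 and 12.9 CPM, and the 95% interval of the log2 difference, -0.75 to 0.75, holds the PND21 value.

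The largest estimates were those of Fbn2 and Loxl2, which had few counts at this age. Fbn2 measured 1.51, 1.14, 4.36, 0.644 and 0.352 CPM in CTR and 1.06, 0.787, 0.296 and 1.22 CPM in GLLP, which are 8 to 128 counts a library. CTR replicate 3 was far above the rest, and the log2 fold change was -0.92 (SE 0.72, edgeR adjusted p = 0.914). Loxl2 measured 0.168, 2.41, 2.01, 0.965 and 0.0782 CPM in CTR and 2.27, 0.894, 2.29 and 2.68 CPM in GLLP. CTR replicates 1 and 5, with 4 and 2 counts, were the low libraries (log2 fold change 0.85, SE 0.81, edgeR adjusted p = 0.914). Without CTR replicate 5 these log2 fold changes were -1.18 for Fbn2 and 0.56 for Loxl2.

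Among the other members, Fbn1 had a log2 fold change of 0.62 (SE 0.56) and Efemp2 one of -0.53 (SE 0.50). In Fbn1, 3 of the 4 GLLP libraries lay between 45.7 and 47.2 CPM, above every CTR library (6.33 to 38.1 CPM), and GLLP replicate 2 was at 7.26 CPM. Efemp2 was highest in CTR replicate 5, at 26.3 CPM, and without that library its log2 fold change was -0.13. Without it the estimates for the remaining members were 0.30 for Eln, 0.63 for Fbn1, 0.0021 for Fbln5, 0.18 for Emilin1, 0.071 for Lox and 0.25 for Loxl1.

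**Figure D2:**
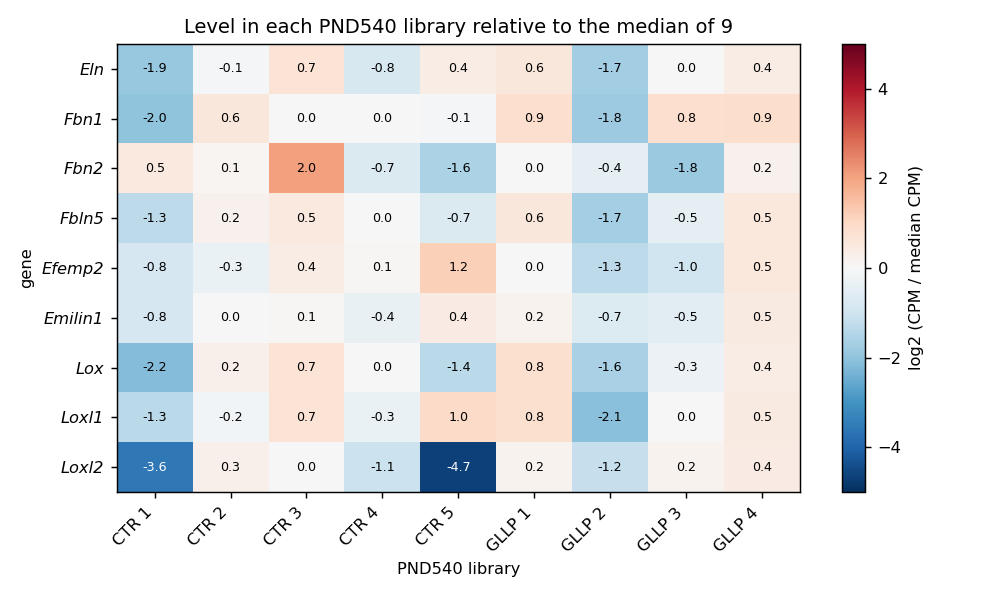
Each cell is the log2 ratio of a gene's CPM in 1 PND540 library to the gene's median over the 9 libraries, with genes in rows and libraries in columns. CTR 1 and GLLP 2 are blue for most members, and CTR 5 is red for Efemp2 and Loxl1 but blue for Fbn2, Lox and Loxl2.

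The spread at PND540 ran across members. CTR replicate 1 and GLLP replicate 2 were each among the 2 lowest of 9 libraries for 7 of the 9 members. GLLP replicates 1 and 4 were each among the 2 highest for 5. The summed level of the 9 members was 36.9 CPM in CTR replicate 1 and 36.3 CPM in GLLP replicate 2, against 89.1 to 156 CPM in the other 7. Stromal markers moved with it: smooth muscle genes summed to 576 CPM in CTR replicate 1 and 686 CPM in GLLP replicate 2, and to 1168 to 1741 CPM in the other 7. Fibroblast genes summed to 77.3 and 169 CPM in those libraries, to 135 CPM in CTR replicate 5, and to 300.3 to 633 CPM in the other 6. The part of the stroma's share of the tissue in the members' spread was not tested. CTR replicate 5 did not follow that order: it was the highest of 9 for Efemp2 and Loxl1 and the lowest for Loxl2.

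The pathway lists gave no call by diet at PND540. None of 20 further elastic fibre and microfibril genes (15 higher), none of 14 crosslinking genes (8 higher) and none of 12 elastases and inhibitors (7 higher) passed the edgeR test. The smallest p in each list belonged to Emilin3, a relative of Emilin1 (log2 fold change -0.90, SE 0.47), to Postn, a matricellular protein that brings Bmp1 to the matrix (0.57, SE 0.50), and to Timp1, an inhibitor of metalloproteinases (-0.84, SE 0.50). All 3 had an edgeR adjusted p of 0.914. Without CTR replicate 5 the values were -0.30 for Emilin3, 0.33 for Postn and -0.56 for Timp1.

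Between the ages the members fell in both diets. In CTR, 9 of 9 were called lower at PND540 and had every PND540 library below every PND21 library, where 13.2% of the 13510 genes tested were called lower and 18.9% lay lower without overlap. In GLLP it was again 9 of 9 on both counts, where 17.1% of 13694 genes were called lower and 22.2% lay lower without overlap. The median log2 fold change of the members was -2.52 in CTR and -2.55 in GLLP, against 0.07 and 0.02 over all genes tested. The age comparisons share their PND21 and PND540 libraries with the diet comparisons, so the values are given side by side and no likeness between them is counted.

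Elastin and the fibrillins fell by 9.59- to 44.0-fold. Eln fell 21.4-fold in CTR, with group means of 348 ± 50.7 (SD, n = 4) and 16.2 ± 9.20 CPM (SD, n = 5), a log2 fold change of -4.42 (SE 0.47, edgeR adjusted p = 0.000108). In GLLP it fell 25.9-fold, from 458 ± 106 (SD, n = 3) to 17.8 ± 9.13 CPM (SD, n = 4; log2 fold change -4.69, SE 0.49, edgeR adjusted p = 0.000149). The lowest PND21 library held more than 10 times the highest PND540 library in each diet.

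Fbn1, at 299, 262, 425 and 241 CPM in CTR at PND21, stood at 6.33, 38.1, 25.5, 25.6 and 23.7 CPM at PND540. CTR replicate 1 of PND540 was lower than the other 4, and the fall was 12.8-fold (log2 fold change -3.68, SE 0.44, edgeR adjusted p = 0.000228). In GLLP, Fbn1 fell 9.59-fold (log2 fold change -3.26, SE 0.53, edgeR adjusted p = 0.00154). Fbn2 fell 16.1-fold in CTR (-4.01, SE 0.63) and 44.0-fold in GLLP (-5.46, SE 0.40), to means of 1.60 ± 1.60 (SD, n = 5) and 0.841 ± 0.405 CPM (SD, n = 4). The difference between those falls is the interaction given below.

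The fibulins and Emilin1 fell by 2.13- to 5.52-fold. Fbln5 fell 3.33-fold in CTR and 4.09-fold in GLLP, from 20.03 ± 2.79 to 6.00 ± 2.66 CPM (SD, n = 4 and 5) in CTR. Emilin1 fell 3.80-fold in CTR (log2 fold change -1.93, SE 0.24, edgeR adjusted p = 0.00028) and 5.52-fold in GLLP (-2.46, SE 0.28). Efemp2 fell least in CTR, by 2.13-fold (log2 fold change -1.09, SE 0.36, edgeR adjusted p = 0.0426), from 29.3 ± 0.724 (SD, n = 4) to 13.7 ± 7.70 CPM (SD, n = 5). That call was lost when any library but CTR replicate 5 of PND540 was left out, with edgeR adjusted p of 0.0613 to 0.0919. Without CTR replicate 5, whose Efemp2 level of 26.3 CPM is near the 28.2 CPM of the lowest PND21 library, the log2 fold change was -1.47 (SE 0.23, edgeR adjusted p = 0.000561). In GLLP, Efemp2 fell 4.00-fold (-2.0, SE 0.41, edgeR adjusted p = 0.00524).

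The lysyl oxidases fell by 4.20- to 14.2-fold. Lox fell 5.75-fold in CTR and 5.59-fold in GLLP, from 70.0 ± 12.4 (SD, n = 4) and 80.0 ± 7.02 CPM (SD, n = 3) to 12.1 ± 7.89 (SD, n = 5) and 14.4 ± 8.37 CPM (SD, n = 4). Loxl1 fell 4.20-fold in CTR (log2 fold change -2.07, SE 0.41, edgeR adjusted p = 0.00406) and 5.85-fold in GLLP (-2.55, SE 0.53). Loxl2 fell 14.2-fold in CTR (-3.83, SE 0.77) and 8.41-fold in GLLP (-3.07, SE 0.36). In CTR at PND540 it had 2 counts in replicate 5 and 4 in replicate 1, and without replicate 5 the log2 fold change was -3.54.

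**Figure D3:**
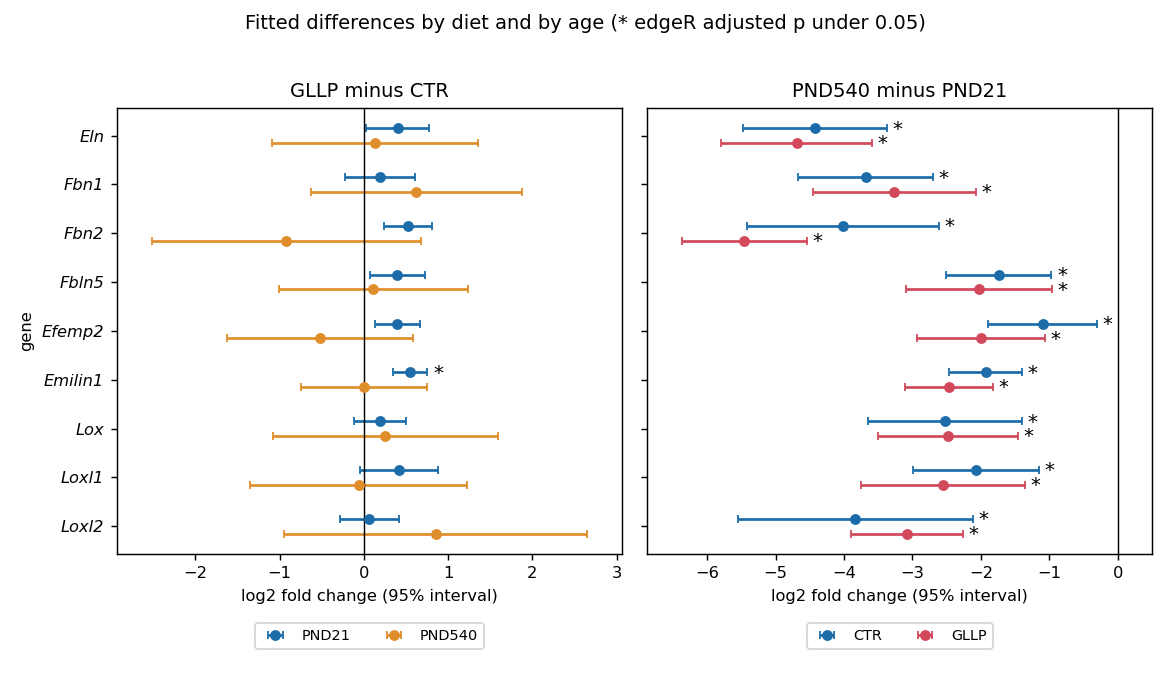
Fitted log2 fold changes with 95% intervals for the 9 tested members, by diet at each age (left) and by age in each diet (right); an asterisk marks an edgeR adjusted p under 0.05. On the left only Emilin1 at PND21 carries one and the PND540 intervals all span 0, while on the right all 18 estimates lie below 0, from -1.09 to -5.46.

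Without CTR replicate 5 of PND540, 9 of 9 members were still called lower in CTR, with log2 fold changes from -1.47 for Efemp2 to -4.57 for Eln. In GLLP, 9 of 9 were called lower under all 14 alternatives run. Markers of smooth muscle, fibroblasts and endothelium were also mostly lower at PND540. Of 8 smooth muscle genes, 6 were called lower in CTR and 7 in GLLP, with medians of -1.42 and -1.38. Of 8 fibroblast genes, 4 were lower and 1 (Col1a2) higher in CTR, and 5 and 1 in GLLP, with medians of -1.33 and -1.51. The fibroblast sum in CTR was 4020 to 5927 CPM at PND21 and 77.3 to 475 CPM at PND540. In GLLP it was 5746 to 7225 and 169 to 633 CPM. The members' sum was 769 to 1136 and 36.9 to 139 CPM in CTR, and 1004 to 1282 and 36.3 to 156 CPM in GLLP. Mean Col1a1 and Col3a1 in CTR went from 1979 and 2123 CPM to 40.4 and 36.9 CPM. Of 7 tested endothelial genes, 4 were lower in CTR and 5 in GLLP. Markers of the luminal epithelium had higher sums at PND540 with no overlap. In CTR their sum was 2849 to 3136 CPM at PND21 and 3799 to 7563 CPM at PND540, and in GLLP it was 2694 to 3076 CPM and 3725 to 4905 CPM. Of those 8 genes, 3 were called higher and 1 lower in each diet, with median log2 fold changes of 0.75 and 0.55. Over all genes, 2336 of 13510 were called higher in CTR and 2611 of 13694 in GLLP. Pbsn went against the sum, as its mean fell from 174 to 15.1 CPM in CTR and from 244 to 9.07 CPM in GLLP. The part of these cells' shares of the tissue in the members' falls was not tested.

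The other elastic fibre and microfibril genes mostly fell with age as well. Of 19 tested, 12 were called lower and 1 higher in CTR, and 15 lower and none higher in GLLP, with medians of -1.64 and -1.69. Mfap2 fell 12.7-fold in CTR and 21.1-fold in GLLP. Vcan, the proteoglycan versican that binds microfibrils, fell 7.02-fold in CTR and 7.19-fold in GLLP, and Ltbp4, which binds latent TGF-beta and helps elastin assemble, fell 4.29-fold and 5.94-fold. Adamts10, a microfibril-bound proteinase, fell 3.12-fold in CTR, and its relative Adamts17 fell 5.86-fold in GLLP. Each was named in the diet where it was among the 4 called genes of smallest p. In the other diet the means also fell, from 126 to 43.5 CPM for Adamts10 in GLLP and from 3.16 to 0.904 CPM for Adamts17 in CTR. The member of the list called higher in CTR was Ltbp2, named here after its values were seen. It rose from 20.2 ± 4.23 (SD, n = 4) to 51.9 ± 20.7 CPM (SD, n = 5), a log2 fold change of 1.36 (edgeR adjusted p = 0.00736). In GLLP the only positive log2 fold change of the list was of like size, 1.35, and was not called.

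Crosslinking genes gave calls in 1 direction. Of 14 tested, 8 were called lower in CTR and 7 in GLLP, and none higher. Postn fell 31.8-fold in CTR and 28.9-fold in GLLP, from 132 ± 26.9 (SD, n = 4) to 4.11 ± 2.58 CPM (SD, n = 5) in CTR. Bmp1 fell 4.26-fold in CTR, and Fkbp10, a chaperone of collagen folding and lysine hydroxylation, fell 3.61-fold in CTR and 6.27-fold in GLLP. Of the lysyl hydroxylases, Plod1 fell 2.04-fold in CTR and Plod2 7.52-fold in GLLP. In the other diet, mean Plod1 went from 97.2 to 36.8 CPM in GLLP, and mean Plod2 from 21.8 to 2.72 CPM in CTR. Pcolce, which helps Bmp1 cut procollagen, fell 5.82-fold in GLLP, and its mean in CTR went from 86.2 to 23.5 CPM. Genes that did not pass in either diet included Loxl4, another lysyl oxidase (log2 fold change 0.23 in CTR and 0.81 in GLLP), and the copper importer Slc31a1 (-0.64 and -0.09).

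Elastases and their inhibitors changed in both directions. In CTR, 4 were called higher and 3 lower of 12 tested, and in GLLP 3 higher and 4 lower of 13. Mmp12, the macrophage elastase, rose 51.1-fold in CTR, from 0.612 ± 0.228 (SD, n = 4) to 31.4 ± 26.9 CPM (SD, n = 5; log2 fold change 5.68, SE 0.67, edgeR adjusted p = 0.000213). In GLLP it rose 28.1-fold, from 0.919 ± 0.351 (SD, n = 3) to 26.3 ± 14.4 CPM (SD, n = 4). Ctss, a cysteine proteinase of antigen-presenting cells that cuts elastin, rose 6.80-fold in CTR and 4.32-fold in GLLP. Serpina1, the inhibitor of neutrophil elastase, rose 13.3-fold in CTR, to 2.87 ± 1.64 CPM (SD, n = 5). Its mean in GLLP went from 0.217 to 2.85 CPM, with PND540 libraries from 0.465 to 8.03 CPM. Mmp14 fell 4.01-fold in CTR and 4.53-fold in GLLP, and Mmp2, the gelatinase it activates, fell 5.48-fold in GLLP. Mean Mmp2 in CTR went from 102 to 23.9 CPM. Of 7 tested immune cell markers, 4 were called higher at PND540 in CTR, where 2336 of 13510 genes were, and 2 in GLLP, where 2611 of 13694 genes were. Their summed level was 45.5 to 63.0 CPM in CTR at PND21 and 67.7 to 209.8 CPM at PND540. In GLLP the sums overlapped, at 65.5 to 72.8 CPM and 68.6 to 162 CPM. Their part in the rise of Mmp12 and Ctss was not tested.

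The interaction asked whether the fall with age differed by diet. No member was called, where edgeR called 0.0917% of 14178 genes, all 13 lower. Of the 13, 6 were skeletal muscle genes, a list that was called higher in GLLP at PND21. At an unadjusted p under 0.05 edgeR had none of the 9 members and 5.17% of all genes, a share at which 0 of 9 says little. The largest estimate was that of Fbn2, -1.44 on the log2 scale (SE 0.79, edgeR adjusted p = 0.738), with a 95% interval of -3.12 to 0.24. Efemp2 followed, at -0.90 (SE 0.58), and Loxl2 had the largest positive estimate, 0.77 (SE 0.91). Of the pathway lists, Emilin3 came closest, at -1.57 (SE 0.58, edgeR adjusted p = 0.738), and at -1.01 without CTR replicate 5 of PND540.

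Ratios of the counts of 2 genes within a library do not depend on how libraries are scaled. Of 16 comparisons of 4 such log2 ratios, none passed a two-sided exact permutation test after Benjamini-Hochberg adjustment. The smallest p this test can give was 0.0571 by diet at PND21 and by age in GLLP, and 0.0159 in the other comparisons. A single comparison at its smallest p could therefore not pass after adjustment, whatever its size. The absence of a pass does not show that the ratios were alike. The ratio of Eln to Col1a1, a chain of type I collagen, came nearest. In CTR it was -2.33, -2.50, -2.61 and -2.57 at PND21 and -1.37, -1.74, -1.54, -1.85 and 0.24 at PND540. Every PND540 library was higher than every PND21 library, and replicate 5 was the highest. The difference of means was 1.25 (exact permutation p = 0.0159, the smallest this design can give, adjusted p = 0.254), and 0.88 without replicate 5 of PND540 (exact permutation p = 0.0286). In GLLP the ratio was -2.78, -2.82 and -2.64 at PND21 and -1.83, -1.34, -2.15 and -1.85 at PND540, a difference of 0.95 with no overlap. Its exact permutation p of 0.0571 is the smallest that 3 libraries against 4 allow. By diet at PND21 the ratio was lower in GLLP by a mean of -0.24, again with no overlap (exact permutation p = 0.0571, adjusted p = 0.305). Mean Col1a1 went from 1979 to 40.4 CPM with age in CTR and from 3052 to 66.5 CPM in GLLP. Age and table cannot be told apart in these ratios either.

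The other ratios did not separate groups. Fbn2 to Fbn1 had a mean log2 ratio of -3.53 in CTR and -3.24 in GLLP at PND21. At PND540 it spread from -5.79 to -2.01 in CTR and from -6.95 to -3.09 in GLLP (difference by age in GLLP -1.91, exact permutation p = 0.229). Lox to Loxl1 lay between -0.57 and 0.65 in 4 of the CTR libraries of PND540 and at -2.05 in replicate 5. Efemp2 to Fbln5 lay between 0.26 and 1.23 in those 4 and at 2.71 in replicate 5. Exact permutation p for these last ratios was 0.238 to 0.914 over their 8 comparisons. Without replicate 5 the mean difference by age in CTR went from -0.59 to -0.13 for Lox to Loxl1, from 0.59 to 0.20 for Efemp2 to Fbln5 and from -0.57 to -0.15 for Fbn2 to Fbn1. By diet at PND540 it went from 0.50 to 0.043, from -0.52 to -0.13 and from -1.05 to -1.47, and for Eln to Col1a1 from -0.54 to -0.17.

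**Figure D4:**
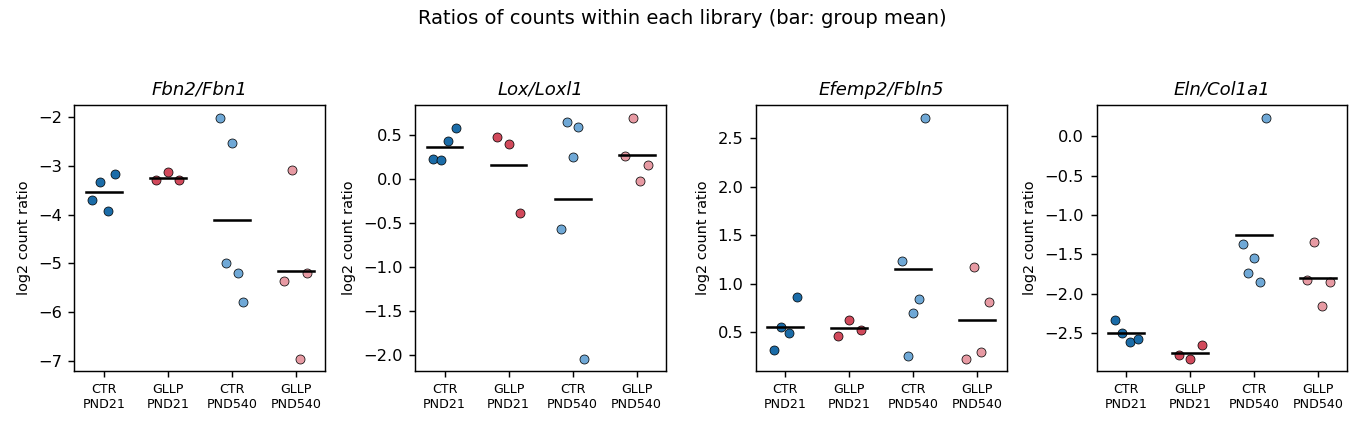
Log2 ratio of the counts of 2 genes in each of the 16 libraries, 1 panel a ratio, with points for libraries by diet and age and a bar for the group mean. For Eln to Col1a1 all PND540 points lie above all PND21 points of their diet, and CTR replicate 5, at 0.24, is the highest; the other 3 panels overlap.

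The genes whose profile over the 16 libraries was most like that of Eln were ranked by the root mean square difference of centred log2 CPM. The 5 nearest of 14054 genes outside the lists were Cthrc1 (0.49), Itm2a (0.58), Crabp1 (0.61), C1qtnf3 (0.61) and Tma7 (0.66). Cthrc1, a secreted protein with a collagen triple helix repeat, averaged 9.03 and 12.7 CPM in CTR and GLLP at PND21 and 0.377 and 0.685 CPM at PND540. Itm2a, a membrane protein of cartilage and muscle precursors, averaged 25.8 and 47.5 CPM at PND21 and 1.5 and 1.98 CPM at PND540. Among the members, counted with 14177 genes, Fbn1 was the 7th nearest (0.66), Fbn2 came 130th and Lox 208th, and Efemp2 was the farthest, at place 901 (1.62). This is a description over libraries that share age and table.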

How the data were processed

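Each age has 1 table of raw counts by gene symbol, deposited without normalization. The submitters' processing notes name STAR, edgeR 3.34.0 and Rnor_6.0 and give no roles. Which program counted the reads, with which annotation and strand setting, is not given in the sources used here. Per the labels' protocols, frozen glands were extracted with Trizol and sequenced from standard Illumina libraries.

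Counts were analysed in R 4.3.3 with edgeR 4.0.16, using TMM after filterByExpr, robust quasi-likelihood tests, Benjamini-Hochberg adjustment over all genes tested, threshold 0.05. Diet effects were fitted within an age (7 and 9 libraries), age effects and the interaction on genes named in both tables. Intervals are 95% from the fit's degrees of freedom. Ratios used counts plus 2. Scripts were tested on simulated data. Counts of every pair of replicates differed beyond sampling noise. Replicate numbers come from the sample titles.

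The members, lists and tests were chosen with earlier results of these data known. All members were named, and from each list the 4 called genes of smallest p in a comparison, or, where none passed, the 1 of smallest p. Alternatives were DESeq2 1.42.0, limma 3.58.1 voom with sample weights, RLE size factors, unscaled library size, no filter, a filter at 1 CPM, a joint fit of 16 libraries, a replicate block, other prior counts for the ratios, and leaving out each library. Promoters and gene symbols were credited to RefSeq's GRCr8, which is not the build in the notes. Lengths were not used, so levels were not compared between genes. Figures were drawn with matplotlib 3.10.9.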

Additional observations from a re-analysis of the deposited data

Results flagged for a closer look

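Groups of 4 or 5 libraries were searched for a library that stood off from its group by Dixon's criterion, for the level of each tested member and for each ratio, 39 groups in all, of which 3 met it. For normal values chance gives about 1 in 20, and 3 of 39 is close to that share. The groups reuse the same libraries, so they are not independent.

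Fbn1 in GLLP at PND540 had its lowest library far from the rest: replicate 2 was at 7.26 CPM and the other 3 lay between 45.7 and 47.2 CPM. In the same library smooth muscle genes summed to 686 CPM and fibroblast genes to 169 CPM, the lowest of the 4 GLLP libraries for both; their part was not tested.

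Fbn2 in CTR at PND540 had its highest library far from the rest, with replicate 3 at 4.36 CPM and the other 4 between 0.352 and 1.51 CPM.

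The log2 ratio of Eln to Col1a1 in CTR at PND540 was highest in replicate 5, at 0.24, with the other 4 between -1.85 and -1.37. That library also stood apart in its correlation with the others, at 0.851.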

How the results depend on the processing

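Over all genes, edgeR called 166 by diet at PND21. That count was 650 with library size alone, 972 with DESeq2, 3490 with limma voom, 27 with the replicate block, 40 in the joint fit, and 62 to 1509 with 1 library left out: 62 to 75 without each CTR replicate or GLLP replicate 3, and 1509 without GLLP replicate 2. Calls were 90.4% higher with edgeR, 69% with DESeq2 and 55.2% with voom. Of the 9 members, 3 were called with library size alone, 2 with DESeq2, 4 with voom and 3 without GLLP replicate 2. Emilin1 and Fbn2 were among them each time, Efemp2 each time but with DESeq2, and Fbln5 only with voom. Library size alone moved the median log2 fold change of all genes by diet at PND21 from -0.00 to 0.14, and by age in GLLP from 0.02 to -0.16, where the share of calls that were higher went from 52.7% to 40.3%. At PND540 the count of 0 became 2 with DESeq2 and stayed at 0 with any library left out. By age in CTR, 4117 calls became 7368 with voom and 3040 to 6574 with a library left out, the highest without CTR replicate 5 of PND540. By age in GLLP the range was 3434 to 5239. The interaction gave 13 calls, 46 with DESeq2, 35 with voom, and 7 to 16 with a library left out, of which 7 without GLLP replicate 2 of PND21 and 8 without CTR replicate 2 or 3 or GLLP replicate 3 of PND21. Where no construction shows the cause, the cause was not tested.

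Log2 fold changes near 0 changed sign. By diet at PND540, Emilin1 (-0.00) was 0.10 with library size alone, 0.065 with voom, 0.014 with no filter, 0.14 with the replicate block and 0.011 in the joint fit; Loxl1 was 0.034 with library size alone, 0.031 with voom and 0.093 with the block; Fbln5 was -0.14 with voom and -0.13 with the block; and Lox was -0.0043 with voom. In the interaction, Lox was -0.063 with library size alone, -0.14 with voom and -0.17 with the block. With 1 library left out, the ranges were, at PND540, -0.10 to 0.46 for Eln, -0.20 to 0.19 for Emilin1, -0.16 to 0.43 for Fbln5, -0.11 to 0.59 for Lox and -0.38 to 0.30 for Loxl1; at PND21, -0.0048 to 0.16 for Loxl2; and in the interaction, -0.51 to 0.048 for Eln, -0.56 to 0.014 for Fbln5 and -0.32 to 0.37 for Lox. The ratio of Lox to Loxl1 ranged from -0.36 to 0.078 at PND21 and from -0.17 to 0.27 by age in GLLP, and that of Efemp2 to Fbln5 from -0.10 to 0.084 and from -0.090 to 0.23.

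The labels do not say whether the replicate numbers pair the samples. The correlation of same-numbered deviations was -0.15, 0.11 and -0.12 at PND21 and -0.13, -0.09, 0.05 and 0.29 at PND540. With so few libraries these values cannot settle it. With the block, the PND21 calls of Emilin1, Mfap2 and Bmp1 were lost and the 9 age calls of the members were kept in each diet. At PND540 depth limits Loxl2 and Fbn2, with as few as 2 and 8 counts in a library.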
